A study of Mus musculus with 11 samples.

Results

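The regions described here are 14353 peaks of the histone mark H3K4me1 that lie inside protein-coding genes of mouse embryonic stem cells, away from gene ends and free of H3K9me3 and H3K27me3 peaks. They were taken from the 37256 unified H3K4me1 peaks of the study, of which 36588 lie on chromosomes 1 to 19. Members had to be under 5 kb wide, overlap no unified H3K9me3 or H3K27me3 peak, lie more than 1 kb from both ends of every protein-coding gene and overlap a gene body of the GRCm38 annotation. Applied in turn, these conditions removed 2723 peaks for their width, 1304 for an H3K9me3 peak, 5859 for an H3K27me3 peak, 3560 within 1 kb of a gene end and 8789 outside gene bodies. The last sets, called peaks near gene ends and peaks between genes below, passed the other conditions and served for comparison. The members were therefore chosen on antibody signal and position, and DNA methylation was not used.

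The study measured histone marks and DNA methylation in the same molecules by CUT&Tag-BS, in which a transposase tethered to an antibody cuts out marked chromatin and the released fragments are treated with bisulfite before sequencing. All libraries came from unperturbed E14 cells, an established embryonic stem cell line of 129/Ola background, kept in serum with Leukemia Inhibitory Factor (LIF). The H3K4me1 and H3K9me3 libraries were made from 250000 cells and each was sequenced in run 1 with 35-bp and in run 2 with 75-bp paired reads, and H3K27me3 was profiled from 4000, 20000, 100000 and 250000 cells. A further 3 libraries, 1 for each mark, were made without bisulfite and gave peaks only. Both runs of a mark were treated as repeat sequencing of 1 library, so there was no biological replicate of any group, and the errors below cover variation along the genome and counting only.

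H3K4me1 is the mark of enhancers, both active and poised, and it also borders promoters. In stem cells, enhancers bound by transcription factors are usually regions of low or intermediate CpG methylation, whereas the bodies of transcribed genes and most other sequence are highly methylated. Methylation within an enhancer is set by the balance of the DNA methyltransferases and TET-mediated demethylation.

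Some members hold a start annotated by RefSeq inside another or a longer gene. Sequences just before some of these starts are given with their CpG content and methylation. They describe such windows and not the members as a class. Windows of 250 bases before the start are shown 5′ to 3′ from the GRCm38.p6 RefSeq promoter table, with every CG, the site that can be methylated, in capitals. CG was the motif searched, and it reads the same on both strands. Of all 32851 windows of this length in the table, 92.1% held at least 1 CG and the median held 6. The first windows are those inside members of genes on the lists of stem cell and signalling genes used below.

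Lifr start in Lifr, chr15:7129322-7129571, plus strand: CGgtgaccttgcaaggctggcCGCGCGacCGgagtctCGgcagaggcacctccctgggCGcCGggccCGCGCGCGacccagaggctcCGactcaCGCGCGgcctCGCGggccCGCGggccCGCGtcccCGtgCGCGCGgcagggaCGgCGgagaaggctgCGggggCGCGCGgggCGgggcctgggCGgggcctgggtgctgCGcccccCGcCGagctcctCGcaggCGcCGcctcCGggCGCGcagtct
Gm3134 start in Sall1, chr8:89040993-89041242, plus strand: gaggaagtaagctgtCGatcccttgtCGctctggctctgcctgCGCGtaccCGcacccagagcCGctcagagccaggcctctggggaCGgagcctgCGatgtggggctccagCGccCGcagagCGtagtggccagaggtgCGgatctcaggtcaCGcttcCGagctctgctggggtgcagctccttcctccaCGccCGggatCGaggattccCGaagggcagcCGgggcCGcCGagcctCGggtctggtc
Grb2 start in Grb2, chr11:115699535-115699784, minus strand: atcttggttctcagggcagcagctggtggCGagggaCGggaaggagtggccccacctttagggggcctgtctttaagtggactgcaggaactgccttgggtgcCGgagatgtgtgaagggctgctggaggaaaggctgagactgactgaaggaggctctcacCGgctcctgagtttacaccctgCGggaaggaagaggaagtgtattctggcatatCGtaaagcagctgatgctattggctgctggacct
Gm31391 start in Tcf7l1, chr6:72677292-72677541, plus strand: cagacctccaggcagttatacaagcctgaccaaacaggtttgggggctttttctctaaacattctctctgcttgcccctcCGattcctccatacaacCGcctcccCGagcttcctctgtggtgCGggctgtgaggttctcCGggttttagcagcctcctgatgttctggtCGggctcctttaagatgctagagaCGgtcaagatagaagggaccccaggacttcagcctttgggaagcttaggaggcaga

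The Lifr window, in the gene of the LIF receptor, held 43 CGs, and 1 of 113 H3K4me1 calls in run 1 and 1 of 144 in run 2 were methylated. At the start of Gm3134 within Sall1, a zinc finger transcription factor gene, 22 CGs gave 0 of 22 methylated calls in run 1 and 2 of 72 in run 2. The Grb2 window, in the gene of an adaptor of receptor signalling, held only 6 CGs and was methylated at 1 of 21 and 1 of 42 calls. At the start of Gm31391 within Tcf7l1, which encodes a repressor of WNT target genes, 7 CGs gave 18.2% in run 1 and 16.1% in run 2. All 4 windows were under 20% methylated in both runs, and the Grb2 and Tcf7l1 windows show that few CGs did not go with a high level there. The next windows had the highest levels among the starts inside members.

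Gm51697 start in Plcd1, chr9:119074821-119075070, plus strand: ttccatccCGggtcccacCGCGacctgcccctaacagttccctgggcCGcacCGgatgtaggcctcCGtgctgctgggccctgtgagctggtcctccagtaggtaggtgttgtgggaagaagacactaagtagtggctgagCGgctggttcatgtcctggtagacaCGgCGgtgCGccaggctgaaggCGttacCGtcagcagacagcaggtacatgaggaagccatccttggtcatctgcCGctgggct
4930478L05Rik start in D16Ertd472e, chr16:78560066-78560315, plus strand: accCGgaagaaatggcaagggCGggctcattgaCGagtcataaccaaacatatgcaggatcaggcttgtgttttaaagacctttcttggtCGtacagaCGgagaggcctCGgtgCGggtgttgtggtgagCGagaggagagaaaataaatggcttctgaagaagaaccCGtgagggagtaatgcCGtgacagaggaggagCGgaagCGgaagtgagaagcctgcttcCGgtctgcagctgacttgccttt
Slc36a3os start in Slc36a3, chr11:55136749-55136998, plus strand: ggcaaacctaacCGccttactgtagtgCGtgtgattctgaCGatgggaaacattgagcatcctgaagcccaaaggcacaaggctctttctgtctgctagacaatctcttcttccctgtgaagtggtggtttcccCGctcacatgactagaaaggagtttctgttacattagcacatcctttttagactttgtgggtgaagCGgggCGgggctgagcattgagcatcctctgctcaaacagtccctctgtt

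The window before Gm51697 in Plcd1, a phospholipase gene, had 30 of 33 methylated calls in run 1 (90.9%) and 54 of 64 in run 2 (84.4%). That in D16Ertd472e had 69.7% and 61.3%, and that in Slc36a3 had 60% and 55.3%. The Plcd1 and D16Ertd472e windows each held 13 CGs, more than the Grb2 or the Tcf7l1 window. Of 110 such windows with at least 20 calls in each run, 93 were under 20% methylated, 40 had no methylated call in either run, and the median level was 1.76%. The 15 windows with 21 or more CGs had levels up to 1.49%, while the 42 windows with 11 to 20 CGs reached 87.6%. Median levels were 8.64% in the 22 windows with 0 to 5 CGs and 10.7% in the 31 with 6 to 10. They were 0% at 11 to 20 CGs and 0% at 21 or more.

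In all, 354 members (2.47%) held such a start, and they were less methylated than the rest. Their pooled H3K4me1 level, the share of all CpG calls that were methylated, was 25.6% ± 0.910 (jackknife SE over chromosomes) against 35.9% ± 0.320 in the 13999 others, which include the members of chromosome 18, for which the promoter table has no window. The difference was -10.3 points, with a 95% interval from -12.1 to -8.59, and it was lower on 17 of the 18 chromosomes with such windows. Of the 300 with enough calls, 46.7% were under 20% methylated, against 18.9% of the others. CpG density moved with this split, at a median of 17.96 CpGs per kb with a start and 11.98 without, and its part in the difference was not tested.

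Members were mostly short, with a CpG density near that of peaks between genes. They covered 19.7 Mb, with a median width of 959 bp (quartiles 627 and 1810) and a median of 13 CpGs, or 11.98 per kb. Peaks near gene ends had a median of 20.1 CpGs per kb and peaks between genes 12.2. H3K4me1 calls fell on members as the choice of peaks implies: 621117 calls in run 1 and 1223310 in run 2, 12.8% of the calls on these chromosomes in each run. H3K27me3 at 250000 cells placed 0.303% of its calls there and H3K9me3 run 2 placed 0.583%. As a result 92.5% of the 260458 CpGs in members were called in H3K4me1 run 2, but 27.8% in H3K27me3 at 250000 cells and 10.7% in H3K9me3 run 2. Whole libraries held from 378056 calls (H3K27me3, 4000 cells) to 37177077 (H3K27me3, 250000 cells).

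Methylation of the members was intermediate. Pooled over all members, 35.4% of H3K4me1 calls were methylated in run 1 and 35.4% in run 2, with jackknife SEs of 0.338 and 0.327. Calls of the H3K9me3 runs in the same peaks gave 43.2% and 42.8%. Those of the H3K27me3 libraries gave 32.7% ± 2.95 from 4000 cells, 32.8% from 20000, 35.2% from 100000 and 36.7% from 250000 cells. Members overlap no peak of these 2 marks, so such calls may be background of those libraries and need not come from marked chromatin. Thus all 8 libraries placed the members between 32.7% and 43.2%, and the H3K9me3 runs were the highest. The level varied little by chromosome, from 31.8% on chromosome 14 to 38.5% on chromosome 15. It did vary with how CpGs were weighted: 29.7% over CpGs with at least 5 calls in a run and 41.1% as an unweighted mean over CpGs.

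Pooled over all calls, the same genes were more methylated outside peaks. Outside all unified peaks the host genes gave 63.9% in each H3K4me1 run, 84.6% and 84.4% in the H3K9me3 runs and 76.2% to 79.3% in the H3K27me3 libraries. Calls outside all peaks may be background of each library, H3K4me1 included, and the levels there differed between libraries. In H3K4me1 the members were lower by 28.5 points (SE 0.474, 95% interval of the difference -29.5 to -27.5), on all 19 chromosomes. The difference fell to -11.0 points (-17.9 to -4.12) when only CpGs with at least 5 calls in a run were counted. At the few CpGs outside peaks with at least 10 calls in run 2 (674) the order was the opposite, with a median of 10% against 16.7% over 27598 such CpGs in members. In the other libraries the pooled difference ran from -44.8 points (H3K27me3, 20000 cells) to -41.4 (H3K9me3 run 1).

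**Figure D1:**
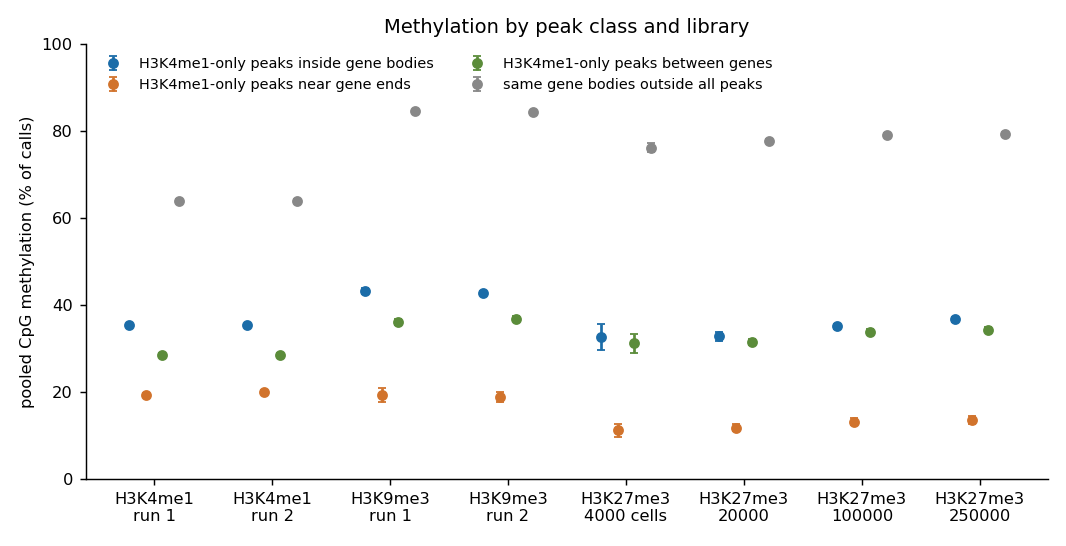
Pooled CpG methylation (percent of calls) in each bisulfite library for H3K4me1-only peaks inside gene bodies, near gene ends and between genes, and for the same gene bodies outside all peaks. Points are single libraries and bars are jackknife SEs over 19 chromosomes. The peaks inside gene bodies lie between 32.7% and 43.2% in every library, above those near gene ends and far below the rest of their genes.

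Position within the genome separated the H3K4me1-only peaks. Peaks near gene ends had a pooled H3K4me1 level of 19.5% in run 1 and 20.03% in run 2, and peaks between genes had 28.7% in each run. Members exceeded the former by 15.7 points (SE 0.408, 95% interval 14.8 to 16.6) and the latter by 6.77 points (SE 0.303, 6.13 to 7.40), in each case on all 19 chromosomes. When classes were compared within bins of width and CpG density, the difference from peaks near gene ends was 7.63 points (7.10 to 8.16) and that from peaks between genes was 7.05 (6.50 to 7.60). Outside all peaks, H3K4me1 differed in the same direction, at 63.9% in the host genes and 57.4% in all sequence between genes. These were 6.53 points apart (2.50 to 10.6), and in H3K9me3 run 2 they were 84.4% and 84.5%. At 4 to 5 kb from peak centres, other peaks and gene ends left out, H3K4me1 run 2 had 64.6% around members and 61.3% around peaks between genes. There the order was the opposite in H3K27me3 at 250000 cells (75.3% and 78.1%) and in H3K9me3 run 2 (79.2% and 82.5%). Whether the surroundings account for the difference between peaks was not tested.

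The size of these gaps differed between libraries of different marks. Between members and peaks between genes the gap was 6.79 points in H3K4me1 run 2, 5.83 in H3K9me3 run 2 and 2.33 (1.56 to 3.10) in H3K27me3 at 250000 cells. With fewer cells the H3K27me3 gap was 1.22 points (0.126 to 2.32) at 100000, 1.25 (-0.673 to 3.17) at 20000 and 1.43 (-7.09 to 9.94) at 4000, so at the 2 lowest inputs it could not be told from 0. The gap from peaks near gene ends was 15.4 points in H3K4me1 run 2, 23.1 in H3K27me3 at 250000 cells and 23.9 in H3K9me3 run 2. H3K4me1 and H3K9me3 had 1 library each and H3K27me3 had 1 at each cell number, so these compare libraries.

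Levels on either side of the rule's limits are given as a description. The 716 members up to 500 bp beyond the limit of 1 kb from a gene end had 32.0% in run 1 and 31.8% in run 2, and the 957 excluded peaks up to 500 bp short of it had 27.1% in run 2. The 484 members up to 1 kb below the width limit had 32.4% and 32.3%, and the 332 otherwise eligible peaks up to 1 kb above it had 33.5% in each run.

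Single members spread widely around the pooled level. Of the 14353 members, 84 held no CpG, 14229 had a call and 7937 (55.3%) had at least 20 calls in each run. Among these 7937 the median level was 36.8%, with quartiles of 23.1% and 51.0%. In all 1583 (19.9%) were under 20% methylated, 6265 (78.9%) lay between 20% and 80% and 89 (1.121%) were above 80%. The share above 80% was 2.49% with at least 10 calls and 0.0512% with at least 50. Of peaks near gene ends 58.4% were under 20%, and of peaks between genes 30.4%. The members' levels agreed between runs, with Pearson's r of 0.944 and Spearman's rho of 0.943 over 7937 members and a median absolute difference of 3.81 points. These correlations are across peaks that share a library.

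**Figure D2:**
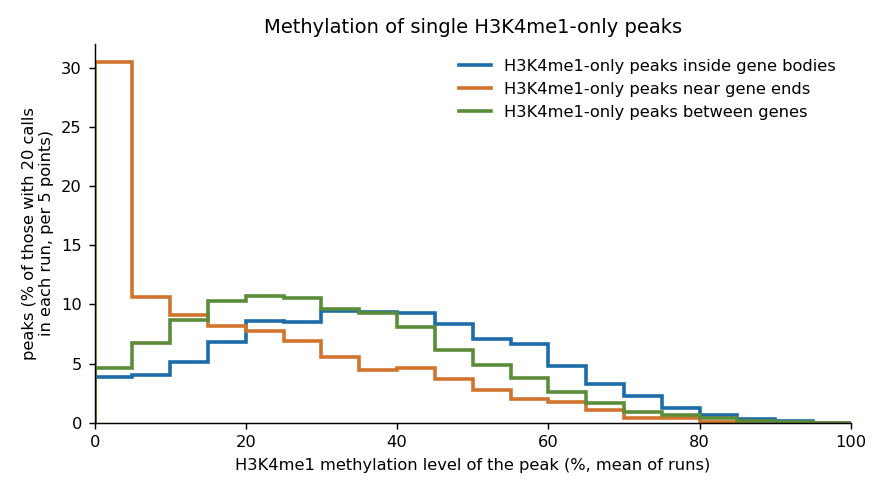
Distribution of H3K4me1 methylation levels (mean of runs, in steps of 5 points) over single H3K4me1-only peaks with at least 20 calls in each run, as percent of the peaks of each class. Peaks inside gene bodies have a median of 36.8% and a broad hump, peaks between genes peak lower at a median of 29.1%, and peaks near gene ends pile up near 0.

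Deeply called single CpGs were often at low levels, in members and elsewhere. Of 27598 CpGs in members with at least 10 calls in run 2, 53.1% were under 20% methylated, 42.6% were between 20% and 80% and 4.30% were above 80%. The share under 20% was 68.8% in peaks near gene ends, 62.7% in peaks between genes and 62.8% in the host genes outside peaks, so low CpGs were not particular to members. Within members whose own level was intermediate, 43.9% of 20601 CpGs were under 20%. These shares describe the deeply covered CpGs, since members had a lower pooled level over CpGs with at least 5 calls than over all CpGs.

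Among members with 50 or more calls in both runs, the 8 with the lowest levels had no methylated call in either. They lay in Puf60 and Spen (a splicing factor and a transcriptional repressor), Cdyl2 (a chromodomain protein), Fbxo46, Inpp5k, Zfp217, Zfp574 and Cipc, a circadian clock regulator. The Puf60 member at chr15:76080686-76081186 held 63 CpGs and gave 0 of 124 and 0 of 211 calls, which allows a level of up to 1.42% in run 2. The Spen member at chr4:141536443-141537337 held 50 CpGs and gave 0 of 116 and 0 of 164 calls, with a limit of 1.83%. H3K27me3 at 250000 cells was also at 0, in 39 calls for Puf60 and 51 for Spen, and in 74 calls for Fbxo46. The Cdyl2 member differed from the others in holding only 22 CpGs over 1914 bp and still gave 0 of 105 and 0 of 193 calls. These intervals and limits cover counting error only.

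Among members with 50 or more calls in both runs, the 8 with the highest levels lay in Arl15, Cmip, Snapc3, Clnk, Ski, Slc38a4, Kit and Dgkz. The Arl15 member at chr13:113799917-113802216 had levels of 82.5% (63 calls, run 1) and 78.7% (155 calls, run 2). In Kit, the stem cell factor receptor, the member at chr5:75591396-75593182 gave 78.0% of 59 calls and 77.9% of 136. The Slc38a4 member (an amino acid transporter gene) gave 79.2% and 77.4%, and that in Ski, a repressor of SMAD signalling, 78.6% and 79.1%. None of these 8 fell below 75.4% in either run. With the minimum of 20 calls the highest member level was 97.9%. Their intervals were wide, for example 65.9% to 86.6% (Wilson, 95%) for Snapc3 in run 2.

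Methylation dipped at the member itself. Within 200 bp of the centre, 32.2% of H3K4me1 calls were methylated in each run, against 64.6% at 4 to 5 kb on either side, after CpGs in other peaks and within 1 kb of gene ends were left out. The centre was lower by 32.4 points in each run (95% interval in run 2 -33.5 to -31.4) on all 19 chromosomes. H3K27me3 at 250000 cells went from 31.8% to 75.3% and H3K9me3 run 2 from 37.9% to 79.2%, which is -43.5 and -41.4 points. With every CpG kept, the H3K4me1 flank stood at 36.8% in run 1 and 36.9% in run 2, that of H3K27me3 at 34.6% and that of H3K9me3 at 62.3%. Centre minus flank was then -4.59, -4.70, -2.78 and -24.4 points, so the depth of the dip rests on leaving out other peaks and gene ends. In the 4588 members of 1500 bp or more, run 2 fell from 51.1% in the outermost slice of the width to 38.0% in the next and 28.7% in the innermost. The same slices in run 1 gave 51.1%, 38.0% and 28.8%.

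**Figure D3:**
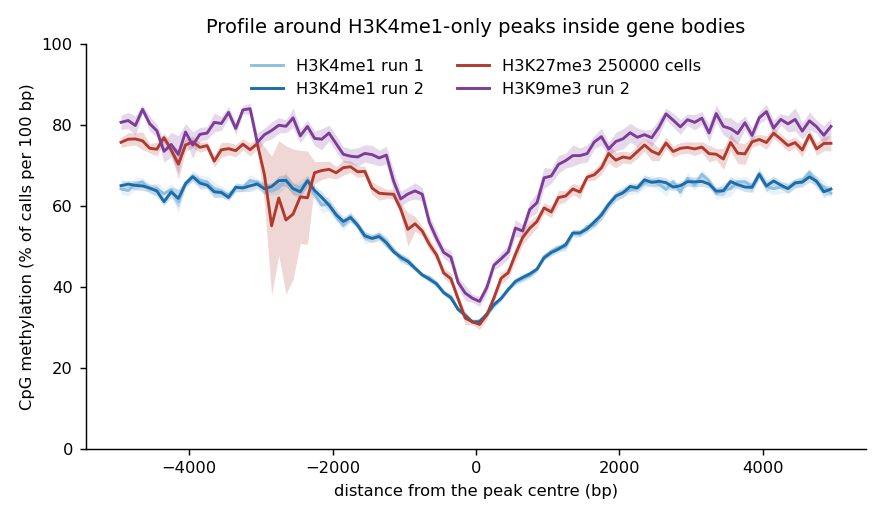
CpG methylation (percent of calls per 100-bp bin) by distance from the centre of H3K4me1-only peaks inside gene bodies, in genome orientation, with other peaks and gene ends left out. Bands are jackknife SEs. All 4 lines fall to between 31% and 38% at the centre, and the H3K27me3 dip between -2900 and -2300 bp comes with 6435 of 25056 calls on chromosome 12, without which that stretch stands at 74.2%.

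The level fell with CpG density. The pooled level was 42.9% ± 1.11 in the 1320 members under 5 CpGs per kb, 37.1% ± 0.421 at 8 to 12, 34.6% ± 0.388 at 16 to 24, 30.3% ± 0.908 at 24 to 40, and 14.6% ± 0.904 in the 220 members with 40 or more. Of the latter with enough calls, 71% were under 20% methylated. Across 7937 members Spearman's rho with CpG density was -0.135. Members with the highest CpG density included those in Dazap1, Puf60, Evi5 and Lekr1. In Dazap1, an RNA-binding protein gene, 77 CpGs gave 2.22% of 90 calls and 1.96% of 153, and in Evi5 62 CpGs gave 0% of 87 calls and 1.85% of 108. The Lekr1 member had no methylated H3K4me1 call in 46 and 31 calls.

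Width, gene length and distance from the gene start changed the level by less. By width the pooled level went from 39.5% ± 0.508 in members of 500 to 750 bp to 33.2% ± 0.369 in those of 3500 to 5000 bp. Levels of single members did not fall this way. Their median was 33.1% at 500 to 750 bp, 38.3% at 1000 to 1500 bp and 35.4% at 3500 to 5000 bp. The share under 20% methylated went from 33.3% in the narrowest bin to 13.8% in the widest. These medians and shares cover members with enough calls, 962 of 5410 in the narrowest bin and all 868 in the widest. By distance from the start of the host gene the pooled level was 33.2% ± 0.638 within 5 kb, 37.2% ± 0.619 at 10 to 20 kb and 33.5% ± 0.570 beyond 100 kb. The gene bodies outside peaks rose over the same distances from 42.1% ± 0.664 to 65.9% ± 1.03 and 67.0% ± 0.549, so members within 5 kb of a start differed less from their surroundings. By gene length the pooled level was highest, 37.4% ± 0.525, in genes of 50 to 100 kb and lowest, 30.6% ± 0.878, in genes over 500 kb. Spearman's rho over members was 0.038 with width (opposite in sign to the pooled fall), -0.0041 with gene length and -0.017 with distance from the start. With at least 50 calls in each run, rho with width was 0.122 and the signs of the last 2 turned, at 0.0073 and 0.0055.

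**Figure D4:**
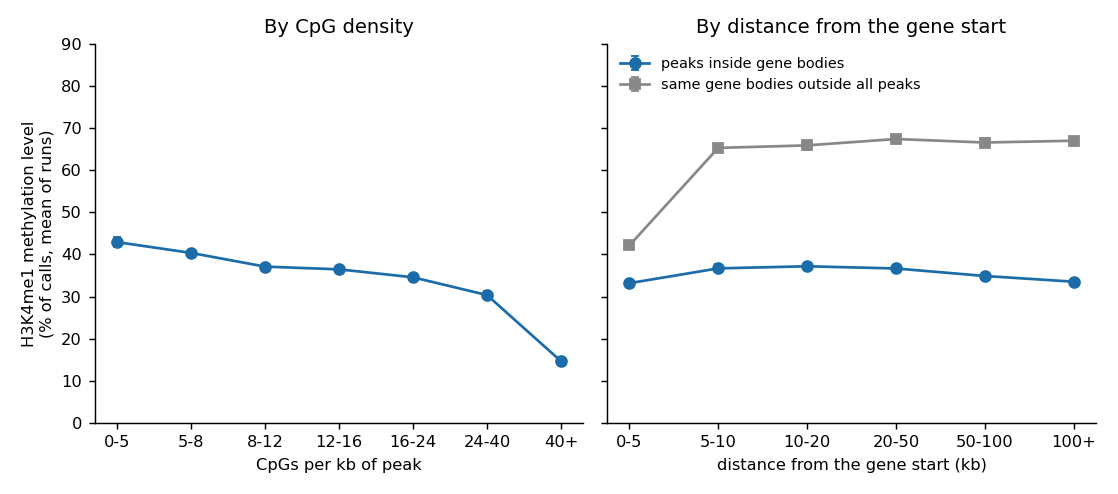
Pooled H3K4me1 methylation (percent of calls, mean of runs) of H3K4me1-only peaks inside gene bodies by CpGs per kb (left) and by distance from the start of the host gene (right, with the same gene bodies outside all peaks). Bars are jackknife SEs. The level drops to 14.6% at 40 or more CpGs per kb, and stays between 33.2% and 37.2% at all distances while the gene body rises from 42.1% to 67.0%.

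The members lay in 5109 of 20661 protein-coding genes. Of these 2225 genes held 1 member, 881 held 5 or more, 211 held 10 or more and 18 held 20 or more. The genes with the most members were Msi2 (36), Ptprg (33), Magi1 (31), Ankrd11 (27) and Gse1 (27). Msi2, an RNA-binding regulator of stem cells, had a pooled member level of 39.3% in run 1 and 38.8% in run 2, against 68.5% and 68.4% in the rest of its body. Ptprg, a receptor tyrosine phosphatase gene, had 34.7% and 34.5% against 70.8% and 69.9%. Magi1, a scaffold of cell junctions, had 41.5% and 41.4% against 70.9% and 71.9%. Ankrd11, a chromatin regulator, was the highest with 49.7% and 49.6% against 67.5% and 67.3%, and Gse1 had 41.9% and 42.3% against 64.3% and 65.5%. In each of these 5 genes the members were lower than the body in both runs.

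The same held for most genes. Of 3435 genes with at least 20 calls in members and in the body in each run, members were lower in both runs in 3113 (90.6%) and higher in both in 168. The median difference was -30.1 points, with quartiles of -41.3 and -17.8. Members of 1 gene nevertheless differed nearly as much as members in general. Among 6008 members of 1658 genes, the SD of the level was 18.98 points in all and 17.9 within genes, and 11.5% of the variance lay between genes. The counting error at these depths corresponds to an SD of 4.88 points. The median range within a gene was 29.0 points, and 378 genes (22.8%) held both a member under 20% and another over 50%.

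Kit showed such a range. Besides the member at 78.0% and 77.9% it held one at chr5:75576774-75581483 with 50.4% of 135 calls and 45.6% of 305. In Cacna1c, a calcium channel gene, neighbouring members had 28.3% and 31.5% at chr6:118767778-118772038 and 47.1% and 48.9% at chr6:118775088-118779711. In Nfib, a transcription factor gene of the neural list, members had 27.5% and 25.8% at chr4:82435211-82438830 and 54.8% and 52.7% at chr4:82403949-82406599. The runs kept the order of the pair in each of these 3 genes.

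Among genes of naive and general pluripotency, 20 of 38 held a member, 81 members in all, against 24.7% of all protein-coding genes. Their pooled level was 37.2% in run 1 and 37.3% in run 2, with a median of 43.7% over the 50 with enough calls, beside 36.8% over all members. At Tcf7l1 a member at chr6:72784556-72787924, 2.8 kb from the gene start, had 18.6% of 204 and 18.6% of 365 calls, and another at chr6:72675617-72680074 had 32.5% and 32.6%. In Jarid2, a partner of Polycomb complex PRC2, the member at chr13:44811228-44816124 had 28.2% and 33.0%. The 4 of 20 formative and primed genes with members had 35.7% and 34.7%. Of these Tead2 had 37.6% and 38.6%.

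For LIF, FGF, WNT and BMP signalling, 24 of 41 genes held 79 members, with 40.9% and 42.5% and a median of 42.1%. The Lifr member at chr15:7127233-7129843, which holds the CG-rich start shown above, had 7.72% of 272 calls and 8.05% of 435 and was the lowest of those named from the lists. Map2k1, the kinase MEK1 of the FGF pathway, had 20.1% and 23.0%, and Smad3 had 43.2% and 41.9%. Of the genes of DNA methylation and histone modifying enzymes, 33 of 40 held 121 members, at 37.8% and 37.4%. In Dnmt3a, the de novo DNA methyltransferase, members at chr12:3870640-3875212 and chr12:3876059-3879881 had 28.1% and 27.5%, and 30.5% and 31.4%. Kdm6b, an H3K27 demethylase, had 38.9% and 36.6%, and Ehmt2, the H3K9 methyltransferase G9a, had 18.1% and 17.5%.

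In the lists of other lineages the genes with a member ranged from 6 of 26 to 15 of 33. In endoderm and trophoblast genes 9 of 28 held 24 members, with the highest level of any list, 45.7% and 47.0%, and a median of 47.9% over 14 members. There Tead4 had 39.9% and 45.4%, Col4a2 had 51.8% and 49.1%, and Lamb1 had 27.8% and 33.2%. In neural genes 15 of 33 held 81 members at 36.4% and 34.5%. In blood and immune genes 9 of 24 held 31 members at 31.1% and 33.0%, where an Ebf1 member at chr11:44759496-44763064 had 11.8% and 14.6%. In muscle, heart and fibroblast genes 6 of 26 held 22 members at 32.4% and 33.2%, including 24.1% and 23.7% in Ryr1. Metabolic and housekeeping genes had 20 of 39 genes with 44 members at 33.4% and 34.0%, such as Hk2 (hexokinase) with 30.5% and 29.9% and Eno1 (enolase) with 19.5% and 18.3%. Gene lengths differ between lists, from a median of 9.61 kb in formative to 319 kb in neural genes, and longer genes have more room for members. Per 100 kb of gene, the lists ranged from 0.375 members in neural to 5.73 in naive and general pluripotency genes. All protein-coding genes had 1.43. The median length was 13.96 kb in the naive list and 17.5 kb over all genes. The part of gene length in these counts was not tested. No expression was measured, so the lists say nothing of which genes were active.

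The marks were compared in the same peaks at CpGs called in both libraries, with H3K4me1 run 2 as the reference. Pooled over members, 36.4% of H3K27me3 calls (250000 cells) and 31.2% of H3K4me1 calls were methylated, a difference of 5.25 points (SE 0.359, 4.50 to 6.01) on all 19 chromosomes. Peaks near gene ends had -2.62 points (-4.22 to -1.02) and peaks between genes 7.23 (6.43 to 8.03). For H3K9me3 run 2 the members had 42.3% against 28.7%, 13.6 points higher (12.7 to 14.4). With equal weight for each shared CpG these differences shrank to 1.31 points (0.738 to 1.88) for H3K27me3 and 6.33 (5.43 to 7.24) for H3K9me3. The members' H3K27me3 and H3K9me3 reads come from regions with no called peak of those marks, so their number is small and they may be background of those libraries.

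Peak by peak, 1375 members had at least 20 shared calls in both libraries for H3K27me3 and 234 for H3K9me3, and no statement covers the others. A peak was called different when the levels were at least 20 points apart. H3K27me3 was higher in 152 members (11.1%), against 5.7% of the 11001 unified H3K4me1 peaks tested, and lower in 31 (2.25%), against 1.39%. With a minimum of 50 shared calls, 14 of 260 members were higher and 1 was lower. The median difference was 1.94 points in members and -0.158 in all peaks tested. By Fisher's exact test with Benjamini-Hochberg adjustment at 0.05, which compares these libraries only, 63 members (4.58%) were higher, close to the 4.37% of all peaks, and 8 (0.582%) were lower, against 6.08%. H3K9me3 was higher in 65 of 234 members (27.8%), near the 25.2% of 2408 peaks tested, and lower in 2 (0.855%), against 0.498%. Fisher's test gave 46 (19.7%) against 22.5% and 0 against 0.166%. By rule members overlap no H3K27me3 or H3K9me3 peak, while the H3K4me1 peaks tested as a whole can overlap them. Their numbers of calls may therefore differ, and the part of this in the shares was not tested. Across members the levels of both libraries ran together, with Pearson's r of 0.825 for H3K27me3 (n = 1375) and 0.781 for H3K9me3 (n = 234), as a description of peaks that share libraries.

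**Figure D5:**
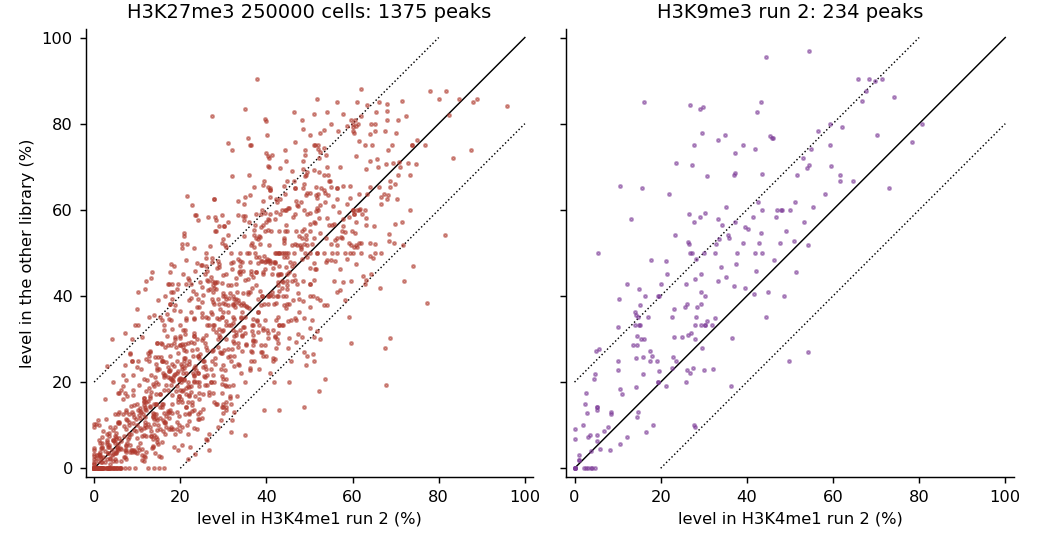
Methylation level (percent of calls at shared CpGs) in H3K27me3 at 250000 cells (left) and H3K9me3 run 2 (right) against H3K4me1 run 2, 1 point for each H3K4me1-only peak inside a gene body with at least 20 shared calls in both libraries. The solid line is equality and dotted lines mark 20 points. In H3K27me3 152 of 1375 peaks lie on or above the upper dotted line and 31 on or below the lower one, and in H3K9me3 65 and 2 of 234.

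Members with a higher level in the H3K27me3 library included one in Vps13d, a lipid transfer protein gene, with 81.8% of 22 H3K27me3 calls against 27.4% of 95 H3K4me1 calls. In Arhgef10 the values were 90.5% of 21 calls and 37.7% of 53, and in Smyd1, a muscle methyltransferase gene, 83.3% of 24 and 35.0% of 123. The member shared by Ccdc33 and Stra6 had 75.6% and 31.0%, and that in Ank 73.9% and 32.0%. Over all CpGs of the Ank member, H3K27me3 at 100000 cells gave 48.8% of 41 calls and H3K4me1 run 1 gave 51.0% of 51, so the excess did not recur there. Smyd1 stayed high at 100000 cells, with 69.0% of 29 calls, and Vps13d and Arhgef10 had no call. In the other direction both extreme members lay in Pfdn4, a prefoldin subunit gene. At chr2:170515785-170517073 H3K27me3 had 19.2% of 26 calls and H3K4me1 67.8% of 59, and at chr2:170512792-170514211 28% of 25 and 67.5% of 80. Csrnp2 had 38.5% and 77.2%, Nyap1 30.3% and 68.8%, and an Auts2 member 14.3% and 48.7%. Over all CpGs of the member, H3K27me3 at 100000 cells stood nearer to H3K4me1 in Csrnp2, at 64% of 25 calls, and in Nyap1, at 59.3% of 27, while the Pfdn4 members gave 0 of 6 calls and 21.4% of 14.

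For H3K9me3 the largest excess was in Zfp324, a zinc finger gene, where 85.1% of 74 H3K9me3 calls and 16.04% of 106 H3K4me1 calls were methylated. H3K27me3 gave 25.4% of 71 calls in that member, nearer to H3K4me1. Stpg1 had 84.3% against 26.8%, Cd96 65.5% against 10.5%, Utrn (utrophin) 83.3% against 29.0% and Dusp3 83.9% against 29.8%. The largest deficits were in Sipa1l2, with 26.9% against 54.2%, and Nfib, with 25% of 24 calls against 49.7% of 171. The next, in Gm30733, Castor2 and Etl4, were under 20 points. These members were named for the size of their difference, so the values are a description.

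The peak lists of the single H3K4me1 libraries come from the same data as the unified peaks that the rule used. Their overlap with members is therefore a description and no independent support. Run 1 overlapped 83.5%, run 2 76.4% and the library without bisulfite 76.9%, and 8527 (59.4%) were in all 3. These 8527 had a level of 34.5% in each run. The 3317 members in lists of bisulfite runs only were narrower, with a median of 521 bp against 1571, and had 39.7% and 40.2%. The 1765 found only without bisulfite had the highest level, 46.1% and 46.9%. Exon and intron positions were not analysed here.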

How the data were processed

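Of the E14 libraries, 8 had bisulfite treatment, and a table of the whole series gives their methylated and total calls for each CpG. The 3 controls without bisulfite were used through their peak lists. The deposited calls are counts made by the authors. The submitters' processing notes name cutadapt 1.12, Bismark 0.23.0, Bowtie2 2.3.0, HOMER 4.10.3, bedtools 2.29.2 and the build mm10. Their roles and the duplicate handling are not given in the sources used here. There were 0 other columns of per-sample values.

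Calls were summed over CpGs in each region, and levels are methylated calls in percent of all calls. Duplicate molecules, incomplete conversion and uneven coverage of CpGs could each move a level. Standard errors leave out each of 19 chromosomes in turn, and 95% intervals use the t quantile with 18 degrees of freedom. They describe these libraries and not the spread between cultures. Values for single members need at least 20 calls in each run and are the mean of the runs. All 395568 CG pairs in the 31396 RefSeq promoter windows on these chromosomes fell on CpGs of the table, so that coordinates share the build GRCm38. The promoter table used has no window on chromosome 18. Strand was known for the genes of 11312 members.

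Members and gene lists were chosen with earlier results of these data known. Named members are up to 3 per list with the most H3K4me1 calls, the 8 lowest and 8 highest with a minimum of 50 calls per run, the 5 genes with the most members, the 5 largest differences per mark and direction, and the 5 with the highest CpG density, of which 1 is not reported here. The printed windows, the matched classes, the profile without other peaks and the equal weighting of CpGs were chosen after seeing the data. The scripts were tested on simulated data. Python 3.11.15, numpy 2.4.6, scipy 1.17.1, pandas 2.3.3 and matplotlib 3.10.9 were used.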

Additional observations from a re-analysis of the deposited data

Results flagged for a closer look

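The difference in methylation between H3K4me1-only peaks inside gene bodies and other H3K4me1-only peaks was not the same in libraries of different marks, by the jackknife interval of the difference itself. The gap from peaks near gene ends was smaller in H3K4me1 run 2 than in H3K27me3 at 250000 cells by -7.63 points (-9.51 to -5.76), than at 100000 cells by -6.51 (-8.30 to -4.73) and than in H3K9me3 run 2 by -8.44 (-10.9 to -5.96). At CpGs called in both libraries these values were -7.87 for H3K27me3 at 250000 cells and -9.55 for H3K9me3. The gap from peaks between genes was larger in H3K4me1 run 2 than in H3K27me3, by 4.45 points (3.70 to 5.21, on 19 of 19 chromosomes) at 250000 cells and by 5.56 (4.52 to 6.61) at 100000 cells. At CpGs called in both, the former was 1.98 points (1.05 to 2.90, on 15 of 19 chromosomes). For H3K9me3 run 2 the interval of this difference included 0, at 0.961 points (-0.520 to 2.44), and at CpGs called in both it was -1.003 (-2.27 to 0.266). H3K4me1 and H3K9me3 had 1 library each, and H3K27me3 had 1 at each cell number.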

How the results depend on the processing

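The differences of members from the other peak classes and from the gene bodies kept their sign and an interval without 0 in each alternative pooled or mean level. For the gene bodies the order was the opposite in the median of single CpGs with at least 10 calls in run 2, at 16.7% in members and 10% outside peaks. The difference from peaks near gene ends ranged from 7.63 to 21.5 points, that from peaks between genes from 5.69 to 7.12, and that from the gene bodies from -29.4 to -11.0. The members' H3K4me1 level was 29.7% over CpGs with at least 5 calls, 41.1% as a mean over CpGs, 36.0% over 5 kb from gene ends, 37.2% under 2 kb wide, 34.5% in all 3 peak lists and 37.3% as a mean over peaks. The median member level was 38.8% with 10 calls, 33.9% with 50 and 36.7% to 36.8% with either run left out (without replicate 1 or 2). Shares under 20% were 18.9%, 20.9% and, under 2 kb wide, 23.2%, and shares over 80% were 2.49%, 0.0512% and 1.67%.

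H3K27me3 was called higher in 503 members with 10 calls, 14 with 50, 40 at 30 points and 63 by Fisher's test. It was called lower in 166, 1, 8 and 8, and in 54 over all covered CpGs. H3K9me3 was called higher in 228, 5 and 32 and lower in 25, 0 and 0. It was lower in 0 by Fisher's test, and in run 1, with 14 members tested, higher in 6 and lower in 0. Fewer members pass a stricter minimum of calls.

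In the other libraries, over CpGs with at least 5 calls, the level was 22.1% and 29.5% in the H3K9me3 runs, and 50%, 25.7%, 22.6% and 24.1% in H3K27me3 from 4000 to 250000 cells. As a mean over CpGs the H3K9me3 runs gave 43.7% and 43.4%, and H3K27me3 from 20000 to 250000 cells gave 33.7%, 37.6% and 39.2%. With 50 calls, rho was -0.121 with CpG density, 0.122 with width, 0.036 with distance to the nearest gene end, 0.0073 with gene length and 0.0055 with distance from the start, and the last 2 turned sign. Leaving out a run gave rho from -0.134 to -0.133 with CpG density, 0.039 to 0.040 with width, 0.0198 to 0.020 with distance to the nearest gene end and -0.017 to -0.015 with distance from the start. Without other peaks the profile's flank stood at 64.6% in each H3K4me1 run, 75.3% in H3K27me3 and 79.2% in H3K9me3. With an overlap of 50% of the member, the lists held 80.7%, 71.7% and 73.0%. The cause of these changes was not tested where the construction does not show it.

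No paired analysis was possible because the runs of a mark are repeat sequencing of 1 library and no result comes from a test across libraries. Depth limits most single members in H3K9me3 and H3K27me3.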
